A study of Stylosanthes guianensis with 9 samples.

Results

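Root tips of stylo (Stylosanthes guianensis), a tropical pasture legume, were compared at 72 h and at 48 h after germination, to see how far the root tip still changed in the last day of a time course. These are 6 of the 9 libraries of the series, 3 at 72 h and 3 at 48 h, chosen by the time in their labels. The 3 others, at 24 h, entered only the shared estimate of the spread and the values given for scale. All groups came from Reyan No. 2, with the tissue labelled as root and no treatment or transgene stated, and libraries were made from total RNA with a BGI RNA-Seq kit. Since the labels give no origin of the replicates, every p below measures variation between these libraries only, and that variation may be technical.

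The tip of a young root holds the meristem, in which cells divide, the root cap that covers it, and a zone behind it in which cells elongate. Border-like cells, which the title of the series names, are living cells that separate from the cap in sheets. In the days after germination a radicle that first grows on seed reserves becomes an established root.

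Expression was given as RPKM, read counts divided by gene length and library size, for 54199 genes. Of these, 28428 were tested, those for which 3 or more of the 9 columns held an RPKM of 1 or above. Genes carry IDs such as c31904_g1 without names. No function could therefore be given to a gene, and the label of the tissue was not checked against marker genes. The libraries held 28453545 to 37783453 reads. Replicates 1 and 3 at 72 h were near copies, with a mean chi-square per gene of 0.0473 against 70.6 to 158.3 for the other pairs of libraries within 72 h or within 48 h, and their mean is called the averaged 72 h library and counted as 1 sample. This left 2 samples at 72 h and 3 at 48 h. Replicate 2 at 72 h stood apart. It listed 18.0% of the tested genes at 0, while replicates 1 and 3 at 72 h listed 0.999% and 0.943%, and the 48 h libraries 1.07% to 1.51%. At 24 h, replicate 1 listed 12.2% at 0.

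The distance between 2 samples was measured as the median over the tested genes of the absolute difference in log2(RPKM + 1). The averaged 72 h library lay 0.241, 0.285 and 0.243 from replicates 1, 2 and 3 of 48 h. Replicate 2 of 72 h lay 0.552, 0.532 and 0.6002 from them. The 2 samples of 72 h were 0.521 apart, and the 48 h samples were 0.218, 0.211 and 0.284 apart. Over all tested genes, the averaged 72 h library was therefore about as far from the 48 h samples as these were from each other. Replicate 2 was about as far from its own partner as from 48 h, though this differed by abundance. Between the averaged 72 h library and a 48 h sample, 3.91% to 5.20% of genes differed at least 2-fold, against 2.72% to 4.83% between 2 samples of 48 h. Between replicate 2 and a 48 h sample the share was 25.2% to 29.9%, and between the 2 samples of 72 h it was 26.4%.

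**Figure D1:**
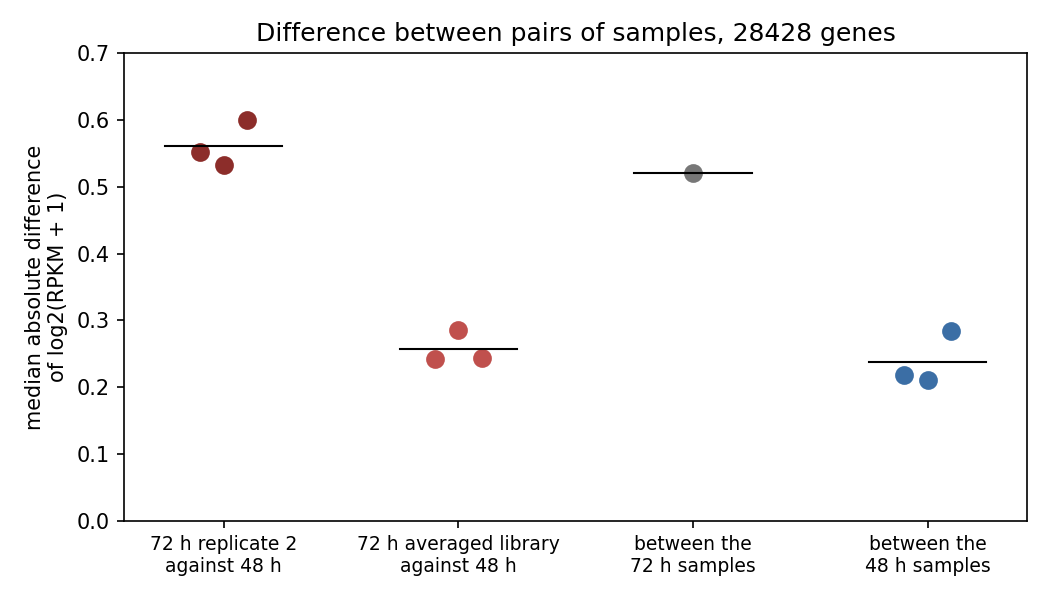
Each point is 1 pair of samples, its height the median absolute difference in log2(RPKM + 1) over the tested genes, and the line is the mean of the pairs. Pairs of the averaged 72 h library with 48 h (0.241 to 0.285) lie at the height of pairs within 48 h (0.211 to 0.284), while all pairs with 72 h replicate 2 lie above 0.5.

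No gene passed the test of 72 h against 48 h. With limma on log2(RPKM + 1) and Benjamini-Hochberg adjustment, 0 of 28428 genes (0%) had an adjusted p under 0.05. At an unadjusted p under 0.05 there were 3161 genes (11.1%), of which 1147 (4.03% of all tested) had the higher level at 72 h and 2014 (7.08%) the lower. The fit pooled the spread over all times, while the 72 h samples were 0.521 apart and the 48 h samples 0.211 to 0.284. The spread at 72 h may thus be understated. Replicate 2 of 72 h was listed at 0 in 506 of the 2014 lower genes. The lowest adjusted p was 0.0765, shared by 12 genes, 6 higher and 6 lower at 72 h, and 20 genes were under 0.1. The difference between the mean log2 levels of both times had a median size of 0.32, was under 0.90 in 90% of genes and under 1.65 in 99%. Its standard error had a median of 0.349, so that a gene with this error would have needed a difference of 3.52 to pass on its own, or of 1.49 if 1000 genes had passed. With voom weights on reads recovered from the RPKM values, limma called 14 genes, 9 higher and 5 lower.

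**Figure D2:**
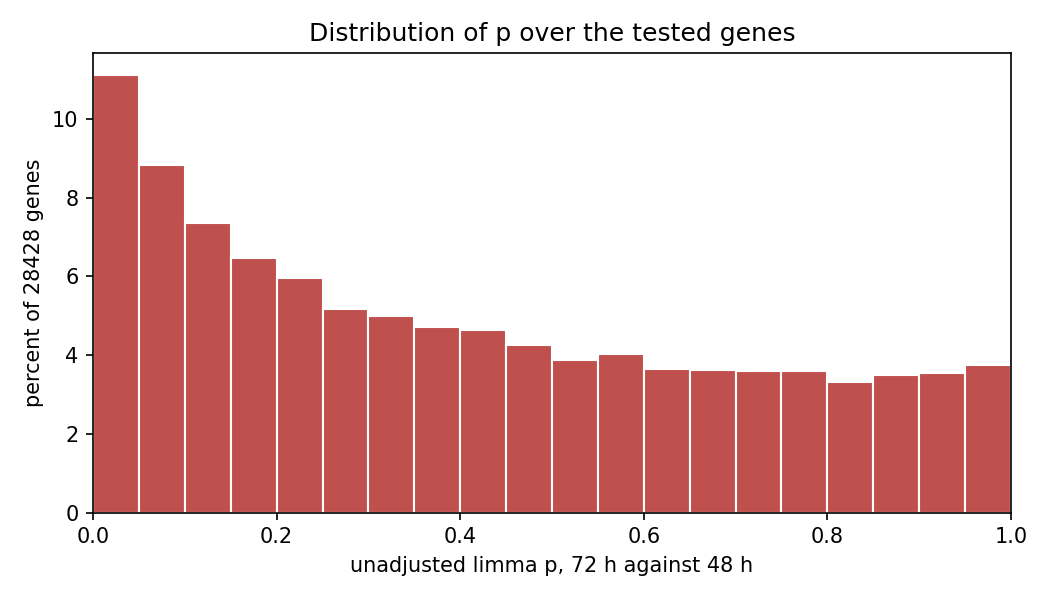
Bars give the percent of the tested genes in each interval of the unadjusted limma p for 72 h against 48 h. The interval next to 0 holds 11.1% of the genes and the one next to 1 holds 3.76%, yet no gene passes after adjustment.

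The result turned on which 72 h library stood for the time. Without replicate 2, 0 genes passed and 927 (3.26%) had an unadjusted p under 0.05, 437 higher and 490 lower at 72 h. Without both near copies, so that replicate 2 alone stood for 72 h, 3496 genes passed, of which 621 were higher and 2875 lower. Both of these fits have 1 sample at 72 h, whose spread is borrowed from the other times. Among the 10555 genes with a mean RPKM of at least 10 the same 2 fits gave 5 and 2034 genes, against 13 with both 72 h samples (6 higher and 7 lower). So the gap between the 72 h samples was also present among genes with a mean RPKM of at least 10. That mean was the only filter on the 10555 genes, and 10399 of the tested genes reached it. Among the tested genes, replicate 2 was at 0 in 1.89% or fewer in each class of mean RPKM from 10 upwards.

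Position among the 5 samples gave the same picture gene by gene. Replicate 2 of 72 h was the lowest of the 5 in 48.9% of genes and the highest in 25.4%. The averaged 72 h library was the lowest in 6.60% and the highest in 21.7%. Of the 48 h samples, replicate 1 was the lowest in 11.4% and the highest in 11.2%, replicate 2 in 21.5% and 10.97%, and replicate 3 in 9.13% and 30.5%. The averaged library lay inside the range of the 3 samples of 48 h in 13399 genes, above it in 9463 and below it in 5566. Replicate 2 lay inside it in 5738 genes, above it in 8308 and below it in 14382.

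Both samples of 72 h lay above all 3 of 48 h in 4397 genes (15.5%) and below them in 4106 (14.4%). A difference of at least 2-fold went with this in 393 of the higher and 1071 of the lower genes, and one of at least 4-fold in 12 and 69. Replicate 2 of 72 h was listed at 0 in 556 of the 1071 and in 33 of the 69. With the averaged library as the only 72 h sample, 15029 genes (52.9%) lay outside the range of 48 h, and with replicate 2 as the only one, 22690 (79.8%). By order alone, a single sample would be the highest or the lowest of 4 in 2 of 4 places. These shares can therefore not be set against those for 2 samples. For 2 samples against 3, order alone gives no overlap in 2 of 10 arrangements, where 29.9% of the tested genes had none. That share was 22.7% at a mean RPKM under 2 and 48.9% at 100 and over. All genes share the same samples, so these shares are a description and no test. Hardly any gene was switched on or off. In 11 genes the RPKM was at least 1 in both samples of 72 h and under 0.1 in all of 48 h, and in 2 genes it was the reverse. With at least 5 in place of 1, both counts were 0. Of the 22538 genes with an RPKM of at least 1 in every 48 h sample, replicate 2 of 72 h listed 1853 at 0 and the averaged library listed 2.

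Distances shrank as genes became more abundant. Genes were sorted by their mean RPKM over the 8 samples into 7 classes. In the 6816 genes under 2, the averaged 72 h library differed from a 48 h sample by 0.356 to 0.394 on the log2 scale, replicate 2 of 72 h by 0.792 to 0.891, and 2 samples of 48 h by 0.343 to 0.372. Replicate 2 listed 53.1% of these genes at 0. In the 974 genes at 100 and over, the averaged 72 h library differed from a 48 h sample by 0.164 to 0.188, replicate 2 by 0.330 to 0.412, and 2 samples of 48 h by 0.0992 to 0.193. Replicate 2 listed 0.205% of these at 0 and was still the farthest. The 2 samples of 72 h were 0.932 apart in the lowest class, 0.6705 at a mean RPKM of 2 to 5, and 0.266 in the highest. In every class from 2 upwards, replicate 2 was nearer to its partner than to any 48 h sample. Under 2 it was farther. The mean distance of the averaged library from 48 h was 0.377 in the lowest class and 0.177 in the highest, against 0.353 and 0.137 within 48 h.

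The share of genes with an unadjusted p under 0.05 was 5.72% in the lowest class and 25.1% in the highest. The median standard error was 0.476 and 0.164 in these classes. In the highest class 65 such genes were higher and 179 lower at 72 h, while in the lowest 221 were higher and 169 lower. Relative to the mean of 48 h, the median shift of replicate 2 was -0.58 in the lowest class and -0.15 in the highest, and that of the averaged library 0.12 and 0.03. Over all tested genes the median difference of 72 h from 48 h was -0.08, and quantile normalization turned it to 0.03. Under that scaling 44.6% of the genes with an unadjusted p under 0.05 were higher at 72 h, against 36.3% as deposited. With median rescaling the share was 35.6% and the median difference -0.04.

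**Figure D3:**
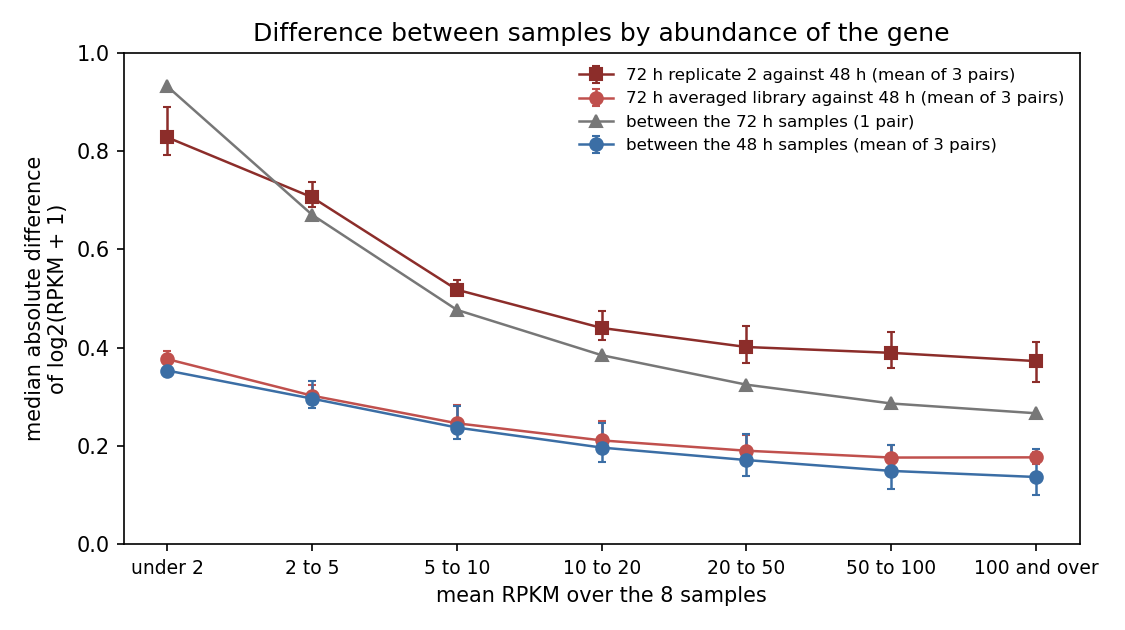
Points give the median absolute difference in log2(RPKM + 1) between samples for genes grouped by their mean RPKM over the 8 samples, and bars span the lowest and highest of the 3 pairs. The range of the averaged 72 h library overlaps that of pairs within 48 h in all 7 classes, and 72 h replicate 2 stays above both, with a mean of 0.828 in the lowest class and 0.373 in the highest.

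The 4 IDs with the widest differences were taken from 1737 genes that had an unadjusted p under 0.05, averaged an RPKM of 10 or above in the higher time, and showed no overlap of columns between times. As they were picked for their difference, their values are a description. The gene c31904_g1 had an RPKM of 55.5 in the averaged 72 h library and 18.0 in replicate 2, against 2.21, 4.79 and 3.67 at 48 h. Its log2 difference was 2.88 (standard error 0.450, limma adjusted p = 0.103). Both 72 h samples were far above 48 h, and they differed from each other by more than the whole range of 48 h.

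The gene c42975_g1 had 7.25 in the averaged library and 23.7 in replicate 2, against 1.25, 1.43 and 2.15 at 48 h, a log2 difference of 2.47 (standard error 0.530, limma adjusted p = 0.232). Here replicate 2 was the higher of the 72 h samples, the opposite of c31904_g1. Without replicate 2 the log2 difference was 1.68 for c42975_g1 and 3.67 for c31904_g1, and neither passed among all tested genes. With all 9 columns as separate samples, which counts the near copies apart, c31904_g1 passed (limma adjusted p = 0.0319).

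Both IDs with the widest lower values were at 0 in replicate 2. The gene c26847_g1 had 13.5 in the averaged 72 h library and was listed at 0 in replicate 2, against 52.3, 97.7 and 59.3 at 48 h (log2 difference -4.16, standard error 0.837, limma adjusted p = 0.201). In reads, replicates 1 and 3 of 72 h held 353 each and replicate 2 held 0, and the 48 h samples held 1304, 2412 and 1562. At 24 h its RPKM was 927.4, 683.0 and 973.3. The gene c30290_g6 had 16.8 in the averaged library and was listed at 0 in replicate 2, against 27.2, 44.2 and 47.4 at 48 h (log2 difference -3.23, standard error 0.964, limma adjusted p = 0.341). For both, the averaged library lay below every 48 h sample, as the rule of no overlap required. The fitted differences depend on the 0 and on the pseudocount of 1. Without replicate 2 the log2 difference was -2.23 for c26847_g1 and -1.15 for c30290_g6, and neither passed.

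**Figure D4:**
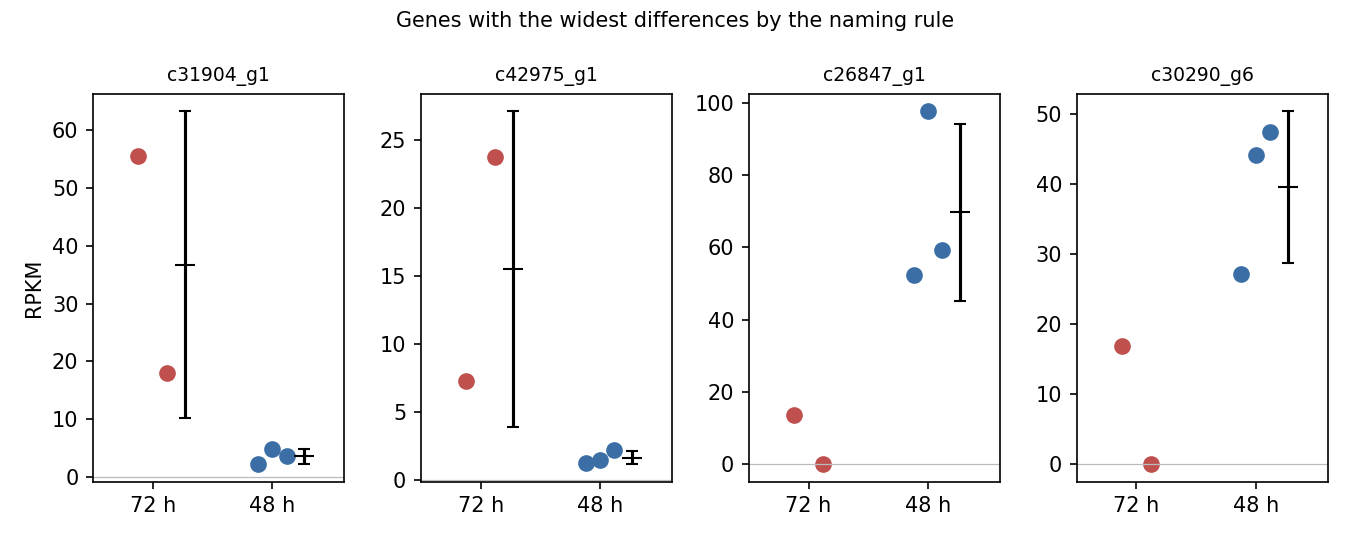
RPKM of the 4 IDs in the 2 samples of 72 h and the 3 of 48 h, each point 1 sample, with the mean and SD beside the points where no sample is at 0. The 72 h samples of each ID lie to 1 side of all its 48 h samples and are themselves spread widely, at 55.5 and 18.0 in c31904_g1.

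Of the 6 genes with the lowest p, picked after their values were seen, 5 were lower at 72 h. The first had an RPKM of 10.2 in the averaged 72 h library and 9.59 in replicate 2, against 44.0, 33.7 and 40.6 at 48 h. It averaged 9.88 ± 0.403 at 72 h (SD, n = 2) against 39.4 ± 5.23 at 48 h (SD, n = 3), and its log2 difference was -1.89 (standard error 0.211, limma adjusted p = 0.0765). At 24 h it averaged 39.0 ± 8.55 (SD, n = 3), close to 48 h. The second gene had 13.9 and 8.68 at 72 h, against 48.6, 72.1 and 50.1 at 48 h, and averaged 1903 ± 530.3 (SD, n = 3) at 24 h, so that it was lower at each later time. The third was more abundant, with 85.8 and 109.4 at 72 h against 211.4, 222.5 and 263.6 at 48 h.

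The fourth was the only one of the first 6 that was higher at 72 h, with 29.5 and 24.2 against 5.61, 7.54 and 5.50 at 48 h, a log2 difference of 1.95 (standard error 0.242). It belongs to the same component as c31904_g1, so reads may be shared between both genes. The fifth had 1.80 and 0.176 at 72 h against 8.89, 13.2 and 10.8 at 48 h, and the sixth 5.68 and 1.75 against 21.01, 21.8 and 22.6. In all 6 the 2 times did not overlap, and all 6 shared the adjusted p of 0.0765. Over the alternatives, 119 of 168 adjusted p-values of these genes stayed above the threshold and 49 were past it. All 6 genes were past it without the filter on low values, among genes with a mean RPKM of at least 10 and under quantile normalization, and none was with only the 48 h and 72 h samples (limma adjusted p = 0.443), without any 1 replicate of 48 h (0.343 to 0.406) or without replicate 2 of 72 h (0.081 to 0.195). The fifth reached a mean RPKM of 10 through 24 h, where it averaged 53.9, against 0.987 at 72 h and 10.97 at 48 h.

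The most abundant gene differed more between replicates than between times. It had an RPKM of 6636 in the averaged 72 h library and 27370 in replicate 2, against 4978, 22030 and 2505 at 48 h (log2 difference 1.05, standard error 0.890, limma adjusted p = 0.642). Replicate 2 was several times the other samples at 72 h and at 48 h. At 24 h it was also the highest, with 7678 against 3391 and 2156 in replicates 1 and 3. The second gene, of the same component, had 4145 and 16811 at 72 h against 3219, 12780 and 1582 at 48 h, and the ratio of the first to the second was 1.601 and 1.63 at 72 h and 1.55, 1.72 and 1.58 at 48 h. The log2 difference of the first was 0.03 without replicate 2 of 72 h, 1.93 without replicate 2 of 48 h and 0.36 without replicate 3 of 48 h, and that of the second was 0.04, 1.89 and 0.38.

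The third most abundant gene had 5910 and 5243 at 72 h against 5202, 4361 and 5541 at 48 h, and the times overlapped. The fourth had 5399 in the averaged 72 h library and 2064 in replicate 2, against 5503, 5305 and 5368 at 48 h, where the samples differed by little (SD 101.2). Its averaged library lay within 48 h, and without replicate 2 its log2 difference of -0.69 was 0.0021. The fifth had 3276 and 1299 at 72 h against 3986, 3978 and 4394 at 48 h, with no overlap (log2 difference -0.996, standard error 0.322, limma adjusted p = 0.365), and without replicate 2 its log2 difference was -0.33.

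**Figure D5:**
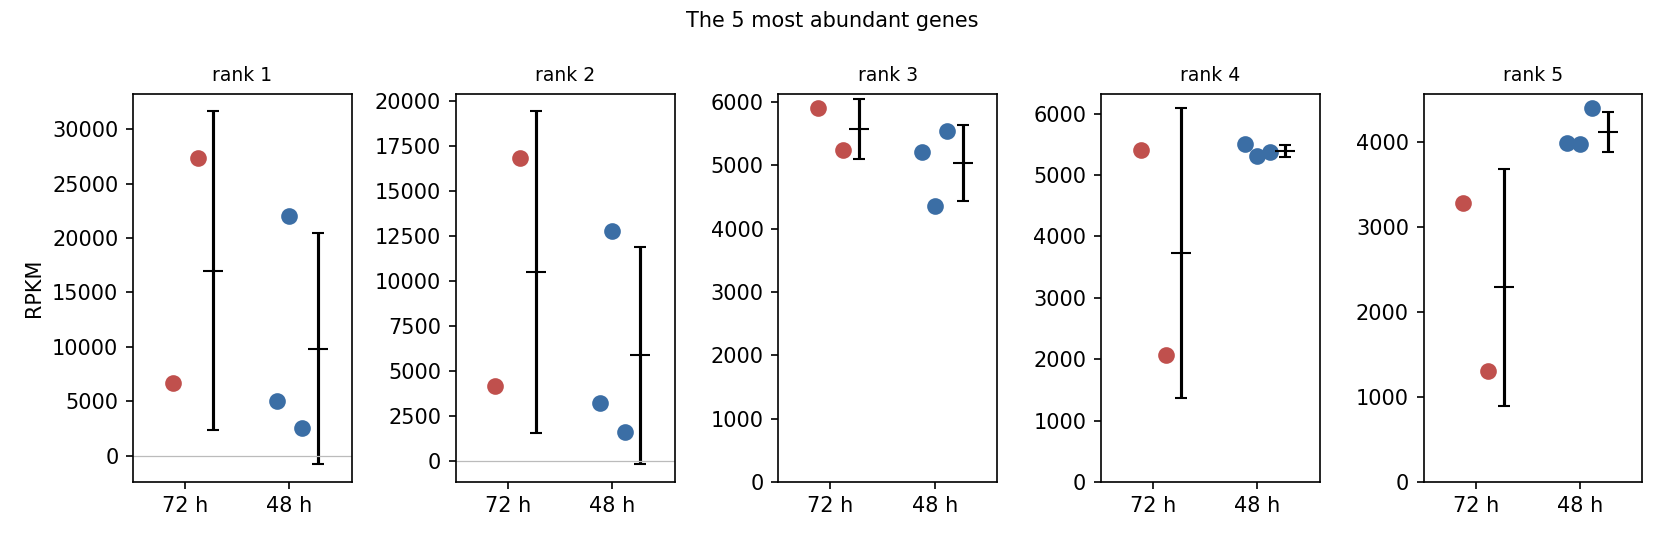
RPKM of the 5 genes with the highest mean over 72 h and 48 h, each point 1 sample, with the mean and SD beside the points. The first and second each have 1 high sample at 72 h (27370 and 16811) and 1 at 48 h (22030 and 12780), and in the fourth only 72 h replicate 2, at 2064, lies away from the rest.

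Genes at an RPKM of 1 or above numbered 27054 in the averaged 72 h library and 23513 in replicate 2, against 27362, 25812 and 27345 at 48 h. The 100 highest genes held 20.8% and 25.9% of the RPKM total at 72 h, against 19.97%, 24.0% and 18.9% at 48 h. For both measures the times overlapped, and the overlap came from replicate 2 of 48 h. At both times replicate 2 had the fewest such genes and the highest share. An exact 2-sided permutation test, which took no account of the replicate number, gave p = 0.4 for each measure. After Benjamini-Hochberg adjustment over the 2 measures this was also 0.4, where 0.2 is the smallest p that 3 against 2 samples can give. Without replicate 2 of 72 h both differences changed sign, to 214.3 more genes and to a share lower by 0.137 percentage points at 72 h.

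The last day was set beside the day before in the same fit. At an adjusted p under 0.05 from limma, 0 genes passed for 72 h against 48 h, while 2163 (7.61%) passed for 48 h against 24 h and 3781 (13.3%) for 72 h against 24 h. These comparisons share samples, and their order turned with the libraries. With sample quality weights, 6599 passed for 48 h against 24 h, 2103 for 72 h against 24 h and 0 for 72 h against 48 h. In the main fit the median absolute log2 difference was 0.316 for 72 h against 48 h and 0.309 for 48 h against 24 h. With replicate 2 alone at 72 h the value for 72 h against 48 h was 0.560, and without replicate 2 it was 0.215. Without replicate 2 of 72 h, 3144 passed for 48 h against 24 h and 1657 for 72 h against 24 h, while without both near copies it was 3150 and 7584. Without replicate 1, 2 or 3 of 48 h, 1006, 1101 and 1147 passed for 48 h against 24 h, and 2469 without replicate 1 for 72 h against 24 h. Without replicate 3 of 24 h the counts were 1368 and 2256. The difference between both steps, tested as a contrast of its own, passed in 296 genes (1.04%). In 220 of them the last step was the higher, but the lower genes were the more numerous with voom weights (39 higher, 61 lower) and without both near copies (505 higher, 999 lower). The median log2 difference of the 220 was -0.01 for 72 h against 48 h (quartiles -0.23 and 0.22) and -3.62 for 48 h against 24 h (quartiles -4.62 and -2.75), so that the level at 72 h was near that at 48 h, below that at 24 h. In the other 76 the medians were -0.57 and 1.95, that is, lower at 72 h than at 48 h after a higher level at 48 h than at 24 h. Of the 220 genes, 16 differed at least 2-fold over the last day and 213 over the day before, and of the 76 genes, 25 and 68 did. These genes were chosen by the difference of steps, so their values are a description. The count was 90 and 31 with pseudocounts of 0.1 and 0.01, 380 without replicate 2 of 72 h and 1504 without both near copies, 88, 101 and 84 without replicate 1, 2 or 3 of 48 h, and 187 and 173 without replicate 2 or 3 of 24 h.

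As a distance, the averaged 72 h library lay 0.241 to 0.285 from the 48 h samples, and 48 h samples lay 0.306 to 0.379 from replicates 2 and 3 of 24 h and 0.566 to 0.595 from replicate 1 of 24 h, which listed many genes at 0. Replicates 2 and 3 of 24 h were 0.271 apart. Replicate 2 of 72 h lay 0.609 to 0.783 from the 24 h samples, and the averaged library 0.371 to 0.629.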

How the data were processed

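RNA of root tips was sequenced at 24, 48 and 72 h after germination, with 3 libraries per time, and only the steps for 72 h against 48 h are given. The authors deposited RPKM values for 54199 genes in 9 columns. HTSeq 0.6.0 is credited to the submitters' processing notes. Aligner, assembly and annotation are not given in the sources used here. The paper that cites the series describes another experiment and gave no method for these files.

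Library totals and whole reads per gene were recovered from the steps of the RPKM values. All 54199 genes gave whole reads in all columns, within 1e-08 reads or a relative error of 1e-09. Columns of 72 h replicates 1 and 3 were averaged. The test was limma 3.58.1 (R 4.3.3), fitted to log2(RPKM + 1) of all 8 samples at once, with a pseudocount of 1, an intensity trend and no block. Fold changes on this scale understate the change of low genes. Genes were kept where 3 or more of 9 columns reached an RPKM of 1. The method was tested on simulated data with normal noise and 1 spread per gene shared by all times. Such data held no sample that stood apart like 72 h replicate 2, so that case was not tested. Single values per sample were compared with exact permutation tests. Named IDs were the 2 widest higher and 2 widest lower genes whose unadjusted p was under 0.05, whose higher time averaged an RPKM of 10 or above, and whose columns did not overlap, and the 5 most abundant genes are given by rank. The genes of lowest p were added after their values were seen. Samples, rules and tests were chosen with earlier results of these data known. Alternatives changed the pseudocount, filter, scaling, variance model, block, samples and genes. Python 3.11.15, pandas 2.3.3, SciPy 1.17.1 and matplotlib 3.10.9 made tables and figures.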

Additional observations from a re-analysis of the deposited data

Results flagged for a closer look

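The step from 48 h to 72 h differed from the step from 24 h to 48 h in 296 genes, by a limma contrast that tested the difference itself at an adjusted p under 0.05. In 220 of these genes the last step was the higher in sign, with a median log2 difference of -0.01 against -3.62 for the day before. Most of the 220 thus differed little over the last day. In 76 the last step was the lower, with medians of -0.57 and 1.95. This majority turned with voom weights (39 higher, 61 lower) and without both 72 h near copies (505 higher, 999 lower).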

How the results depend on the processing

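Of 28 alternatives for genes passing at 72 h against 48 h, 18 gave 0, leaving out each replicate (0 to 0) among them. The others gave 6 without a filter, 13 at a mean RPKM of at least 10, 15 with median rescaling, 23 with quantile normalization, 39 with all 9 columns as separate samples, 14 with voom weights, and 3496 without both near copies. In settings chosen after seeing the data, the mean RPKM filter gave 5 without 72 h replicate 2 and 2034 without both near copies. Deviations of same-numbered samples correlated by -0.0489 to 0.223 with the averaged library as replicate 1 (other pairs -0.246 to 0.143) and by 0.000167 to 0.223 with it as replicate 3 (other pairs -0.246 to 0.0785). In the latter case all same-numbered pairs but replicate 1 of 24 h and 48 h (0.000167) were at least 0.0941, above every other pair. Since the labels give no origin of the replicates and not every pair was over 0.1, the main fit had no block. Whether the numbers pair the samples was not settled. The fit with a replicate block gave 0 genes with the averaged library as replicate 1 and 11 with it as replicate 3. The step difference, 296 genes, gave 90 and 31 with pseudocounts of 0.1 and 0.01, 525 with quantile normalization, 518 with all 9 columns, 877 with quality weights, 100 with voom weights, 1504 without both near copies, 597 without both libraries with many genes at 0, 1002 without both near copies under the mean RPKM filter, and 84 to 380 when replicates were left out in turn. The mean distance between 72 h and 48 h samples, 0.409, was 0.516 with a pseudocount of 0.1, 0.337 at an RPKM of at least 5 in 3 columns, 0.299 at a mean RPKM of at least 10, and 0.257 to 0.415 with replicates left out, lowest without 72 h replicate 2. Genes without overlap, 8503 (29.9% of those tested), numbered 3921 at a mean RPKM of at least 10 (37.1% of 10555). In settings also chosen after seeing the data, such genes numbered 22690 (79.8%) with 72 h replicate 2 alone and 15029 (52.9%) with the averaged library alone. With replicates left out, the count was 8488 to 15029 (29.9% to 52.9%). These shares rise by order alone when a time has fewer samples. The difference in genes at an RPKM of 1 or above, -1556, ran between -2070 and 214.3 with replicates left out and was -6811 and -134.3 at thresholds of 0.1 and 5, and that in the share of the 100 highest genes, 2.40 percentage points, between -0.137 and 3.92 with replicates left out, both changing sign only without 72 h replicate 2. The first and second most abundant genes ran between 0.03 and 1.93 and between 0.04 and 1.89 with replicates left out. The third changed sign to -0.088 under quantile normalization. The fourth ran between -0.70 and 0.0021 with replicates left out, and was 0.0021 without 72 h replicate 2, also with the mean RPKM filter, and without both libraries with many genes at 0. The 4 named genes changed sign in 0 of 109 values, which their choice by columns without overlap largely fixed in advance. The causes were not tested. With 2 samples at 72 h, a gene of median standard error needed a log2 difference of 3.52 to pass alone.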

Other observations

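Of the tested genes, 17245 lay in 5110 components, by the shared start of their IDs, that held at least 2 of them. Over these genes the log2 difference of 72 h from 48 h had an SD of 0.538, and within components an SD of 0.495. The 10 highest genes held 5.64% and 10.6% of the RPKM total in the averaged 72 h library and 72 h replicate 2, against 5.31%, 9.23% and 4.77% in the 48 h samples.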
